A study of Mus musculus with 2 samples.

Results

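The globin genes of the mouse were examined in haematopoietic stem and progenitor cells sorted as Lineage-Sca-1+c-Kit+ (LSK) cells from fetal liver and from adult bone marrow. Of 9 genes, chosen by name as the embryonic and adult members of the alpha- and beta-globin families, 8 were represented by 9 probes, among 20651 named genes and 55664 probes read on both arrays. The genes were Hbb-y, Hbb-bh1 and Hba-x (embryonic), Hbb-b2, Hbb-bs and Hbb-bt (adult beta) and Hba-a1 and Hba-a2 (adult alpha). No probe was matched to the remaining gene, Hbb-b1.

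The bone marrow cells came from wild type C57BL/6 mice aged 8 weeks, and the fetal liver cells from wild type embryos at E14.5, for which the labels used here give no strain. Neither group was transplanted. The cells were sorted fresh, and 20 ng of total RNA was amplified, labelled with Cy3 and hybridised to 1 single-colour Agilent array per group. The labels do not give the number of animals or whether they were pooled. With 1 array per group there is no replicate check, no test and no p-value for any difference below. Tissue, age, slide and any difference in strain cannot be told apart.

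Haemoglobin is a tetramer of alpha-type and beta-type globin chains, each holding a haem group. In the mouse the embryonic genes of each family stand before the adult ones. Primitive red cells of the yolk sac use the embryonic genes, and the definitive red cells made in the fetal liver and later in the bone marrow use the adult ones. Unlike humans, mice have no separate fetal beta-type chain, so the fetal liver is a site of adult globin synthesis. LSK cells lie upstream of the red cell lineage, and globin transcripts are not among the genes that define them. Within the adult beta pair, Hbb-bs and Hbb-bt belong to the haplotype that C57BL/6 mice carry, whereas Hbb-b1 and Hbb-b2 belong to the other common haplotype. The genes of each family are close copies, and a probe for 1 copy can bind transcripts of another, so the separate values of Hbb-b2, Hbb-bs and Hbb-bt and of Hba-a1 and Hba-a2 are uncertain. Which transcript gave the signal of the Hbb-b2 probe was not tested. No strain is given for the embryos, so their beta haplotype is not known, and its part in the beta values was not tested.

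Promoters of 6 of the 9 genes could be matched in the RefSeq promoter table (build GRCm38.p6). Those of Hbb-bh1, Hbb-b1 and Hbb-b2 could not. The matched promoters are shown because the genes compared below fall into embryonic and adult sets, and because the promoters of the alpha pair are copies. The 120 bases before the annotated start are printed from 5′ to 3′. Capitals mark matches on either strand to CACCC (the core bound by Krüppel-like factors such as Klf1), CCAAT (bound by NF-Y), ATATAA (which resembles the TATA box), AGATAA (bound by GATA factors) and TGACCA (bound by BCL11A in the human gamma-globin promoters). The windows lie at chr7:103853208-103853327 (minus strand) for Hbb-y, chr11:32276480-32276599 (plus) for Hba-x, chr7:103827929-103828048 (minus) for Hbb-bs, chr7:103813924-103814043 (minus) for Hbb-bt and chr11:32283552-32283671 (plus) for Hba-a1.
Hbb-y: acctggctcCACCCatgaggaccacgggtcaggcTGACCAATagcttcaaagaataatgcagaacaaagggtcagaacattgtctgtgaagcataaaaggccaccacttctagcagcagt
Hba-x: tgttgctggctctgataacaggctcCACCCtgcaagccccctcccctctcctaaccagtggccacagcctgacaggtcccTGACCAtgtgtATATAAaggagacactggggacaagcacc
Hbb-bs: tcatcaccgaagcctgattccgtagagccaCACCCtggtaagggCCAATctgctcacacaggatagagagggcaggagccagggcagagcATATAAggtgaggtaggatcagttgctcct
Hbb-bt: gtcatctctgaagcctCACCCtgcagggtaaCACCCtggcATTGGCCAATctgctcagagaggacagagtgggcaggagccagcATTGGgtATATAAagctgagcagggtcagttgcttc
Hba-a1: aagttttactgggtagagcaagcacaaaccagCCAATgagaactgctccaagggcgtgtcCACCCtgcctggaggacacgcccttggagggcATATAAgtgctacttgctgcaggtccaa

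A CACCC core was present in the printed bases of all 5 promoters. Over the 250 bases before the start, the same letters occurred in 52.0% of 32851 promoters in the table. CCAAT, found in 33.8% of all promoters, was present in all but Hba-x. ATATAA, found in 9.10%, was present in all but Hbb-y. Other TATA-like letters, such as the ATAAAA in the printed Hbb-y bases, were not searched. TGACCA, found in 11.4%, was present in both embryonic promoters that could be matched, Hbb-y and Hba-x, and in none of the matched adult ones. In Hbb-y it began at base -86 and shared letters with the CCAAT match at base -83, and in Hba-x it began at base -40. AGATAA, found in 9.99%, matched once in the longer window, in Hbb-bs at base -210, and nowhere in the printed bases. Other forms of the GATA site, such as TGATAA, were not searched. The promoters of Hba-a1 and Hba-a2 were identical over 247 of 247 bases once their annotated starts, which differ by 3 bases, were brought into register. Those of Hbb-bs and Hbb-bt shared 127 of 249 bases at a single shift of 1 base, and no alignment with gaps was made. These matches describe letters in the windows and are not evidence of binding.

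In fetal liver LSK cells, 7 of the 9 globin genes gave a signal that was 2-fold or more above that of bone marrow LSK cells, and 0 were lower by that factor. Over the 13382 genes that either array detected well above background, the shares past 2-fold were 6.73% towards fetal liver and 8.17% towards bone marrow. The adult beta genes differed most among the globins measured on both arrays, from 5.50-fold to 7.96-fold, and the alpha pair differed 2.83-fold and 2.82-fold. The embryonic genes Hbb-y and Hbb-bh1 were well above background in fetal liver alone, and Hba-x on neither array. Hbb-y and Hbb-bh1 entered the comparison through the fetal liver array, so their direction was fixed by that filter. Each difference is the log2 processed signal in fetal liver less that in bone marrow, after division of each array by its own 75th percentile, which was 178.9 for the bone marrow array and 134.0 for the other. Errors after ± are the image software's technical errors. In such bulk samples, more cells carrying a transcript and more transcript per cell cannot be told apart.

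**Figure D1:**
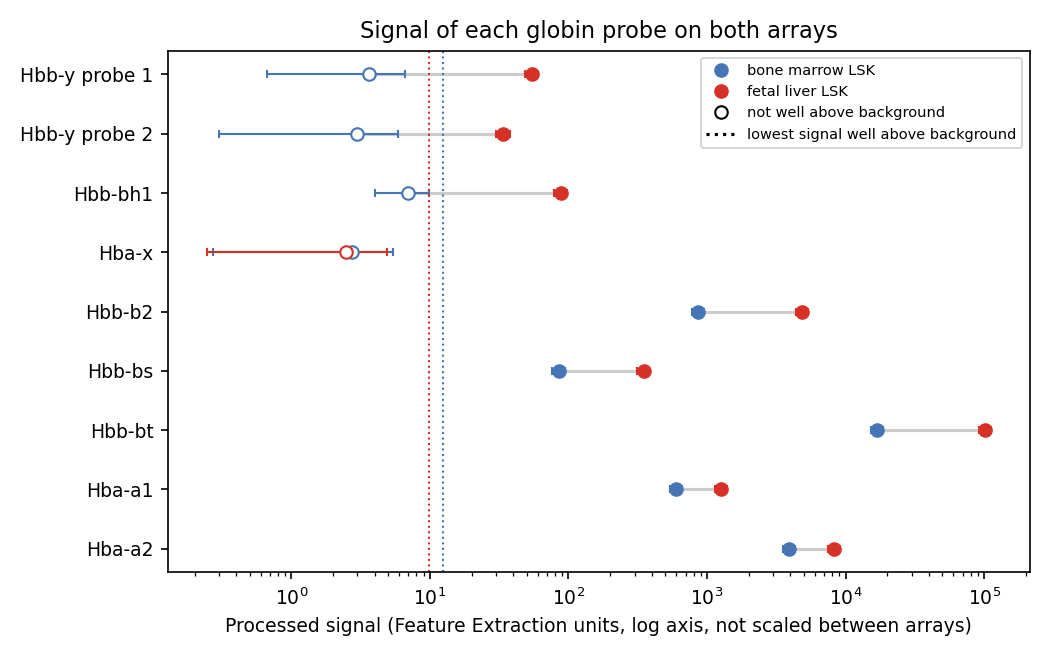
Processed signal (log axis, before scaling between arrays) of each of the 9 globin probes in bone marrow LSK (blue) and fetal liver LSK (red), 1 array each. Bars are the software's technical error, shortened at the left where it reaches the signal, open points were not well above background, and dotted lines mark each array's lowest signal well above background (12.4 and 9.82). All 5 adult probes lie above the lines on both arrays, and Hba-x lies below them on both.

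Hbb-bt, an adult beta-globin gene of the C57BL/6 haplotype, had a processed signal of 16971 ± 1697 for bone marrow LSK and 101150 ± 10115 for fetal liver LSK. Its scaled difference was 2.99 ± 0.20, or 7.96-fold. The probe stood at position 1576 from the brightest of all probes on the bone marrow array and at position 478 on the fetal liver array. No spot was saturated on either array, and the fetal liver signal of this probe was 13.0% of the saturation value.

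Hbb-b2, the adult minor beta gene of the other haplotype, gave 861 ± 86.1 units on the bone marrow array and 4838 ± 484 units on the fetal liver array. This was a difference of 2.91 ± 0.20, or 7.50-fold. Its probe moved from position 8050 to position 2938. The probe for Hbb-bs, the second adult beta gene of C57BL/6, read 84.8 ± 8.96 for bone marrow LSK and 349 ± 35.0 for fetal liver LSK. Its difference was 2.46 ± 0.21, or 5.50-fold, and 1.66 after normexp background correction. All 3 adult beta probes were thus well above background on both arrays and brighter in fetal liver by more than 10 times their technical error.

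The alpha pair gave nearly equal differences from probes of unlike brightness. The Hba-a1 probe read 599.6 ± 60.0 for bone marrow and 1271 ± 127 for fetal liver, so the difference was 1.501 ± 0.20. The Hba-a2 probe read 3906 ± 391 for bone marrow and 8262 ± 826 for fetal liver, and its difference was 1.497 ± 0.20. The probes of the pair moved from positions 9332 and 3804 to positions 6072 and 2178.

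The difference between fetal liver and bone marrow was not equal over the adult globins. Differences between members within the same pair of arrays do not depend on how the arrays were scaled to each other by a constant. Hbb-bt exceeded Hba-a2 by 1.49 ± 0.29 on the log2 scale, and Hbb-b2 exceeded it by 1.41 ± 0.29. The smallest gap between the families, Hbb-bs over Hba-a1, was 0.96 ± 0.29. Within families, Hbb-bt exceeded Hbb-bs by 0.53 ± 0.29, Hbb-b2 exceeded Hbb-bs by 0.45 ± 0.29, Hbb-bt exceeded Hbb-b2 by 0.08 ± 0.29, and Hba-a1 and Hba-a2 differed by 0.004 ± 0.29. Of the 10 pairs, the 4 within families lay within 2 technical errors and the 6 between families did not. This division did not hold under normexp background correction. That setting subtracts background by a model and adds an offset of 50, which draws the differences of dim probes towards 0. There the dim Hbb-bs probe exceeded Hba-a1 by 0.33 and Hba-a2 by 0.42. It fell short of Hbb-bt by 1.06 and of Hbb-b2 by 1.09. Hbb-bt and Hbb-b2 exceeded both alpha genes there too, by more than 2 errors of the main setting. No error was computed for the normexp values themselves. This spread is technical and does not include differences between animals.

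**Figure D2:**
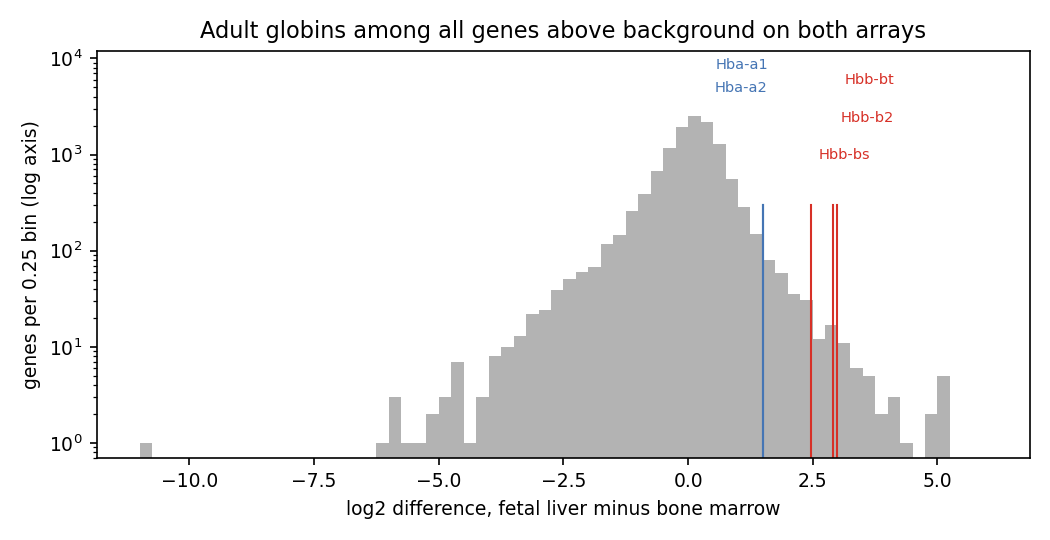
Number of genes (log axis) by log2 difference of fetal liver minus bone marrow, for the 12248 genes well above background on both arrays. Red lines mark the adult beta genes at 2.46, 2.91 and 2.99, and the blue lines, which coincide, the alpha pair at 1.501 and 1.497.

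Among the 12248 genes measured on both arrays, ordered from the highest in fetal liver, Hbb-bt was at position 38, Hbb-b2 at 47 and Hbb-bs at 69, while Hba-a1 and Hba-a2 were at 270 and 273. The median difference over the 3 adult beta probes was 2.91. The 5 genes with differences nearest to it were Farp1 (2.92), Cyp4b1 (2.93), Wnt6 (2.93), St8sia1 (2.88) and Tex33 (2.95). This likeness rests on 2 arrays, and the fetal liver signals of those genes ran from 96.9 (Tex33) to 157 (Wnt6), so they were measured from much dimmer spots.

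The embryonic beta-type genes were dim but present on the fetal liver array. Hbb-bh1, an early embryonic beta-type chain, read 87.7 ± 9.13 for fetal liver and 6.97 ± 2.92 for bone marrow. The bone marrow value was not well above background, so the difference is a bound, at least 9.47-fold (3.24), against that array's lowest signal well above background. Normexp background correction gave 1.37 and spike-in scaling 2.91 for this probe, so the size of the bound depends on the processing. The median spot brightness before subtraction was 111 over a local background of 29 in fetal liver, against 36.5 over 29 in bone marrow.

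Hbb-y, the epsilon-y embryonic chain, was read by a pair of probes. The first gave 54.3 ± 5.96 for fetal liver and 3.61 ± 2.95 for bone marrow, and the other gave 33.9 ± 4.13 and 3.00 ± 2.86. Their bounds were at least 5.86-fold (2.55) and at least 3.66-fold (1.87), both higher in fetal liver, and normexp gave 1.095 and 0.76. The local background of the first spot was marked as an outlier on both arrays, and that of the other was not. For Hbb-bh1 and both Hbb-y probes the software marked the bone marrow spot as positive and significant, its weaker criterion, but not as well above background.

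Hba-x, the zeta-type embryonic alpha chain, read 2.72 ± 2.73 for bone marrow and 2.47 ± 2.47 for fetal liver. Both were at the level of the negative control spots, whose medians were 2.70 and 2.27, and no fold is given. Its transcripts were not detectable with this probe on either array. The embryonic set was thus split, with both beta-type genes above background in fetal liver and the alpha-type gene above it on neither array.

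**Figure D3:**
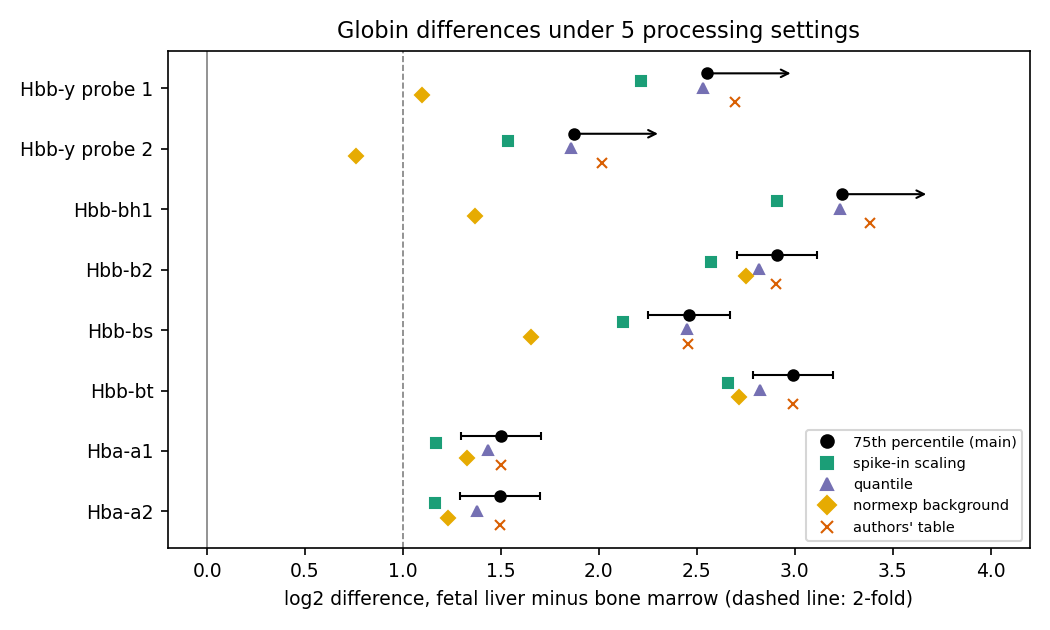
Log2 difference (fetal liver minus bone marrow) of the 8 globin probes well above background on at least 1 array, under the main scaling (black, with technical error bars, or an arrow for a bound) and under 4 alternatives. All values are positive, and 1, the second Hbb-y probe under normexp at 0.76, falls below 2-fold (dashed line). Values of the Hbb-y and Hbb-bh1 probes are bounds and could not be negative by construction.

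Other members of the globin superfamily were dim. Of 9 listed, 6 had probes, and 5 of these, among them the theta-type genes Hbq1a and Hbq1b of the alpha cluster, were not well above background on either array. Hbq1a read 4.16 for bone marrow and 2.02 for fetal liver. Cytoglobin (Cygb), named because it was the 1 gene measured, differed by 0.53 ± 0.30 at signals of 22.6 and 24.4. Genes that flank the clusters are given next. Of 9 genes around the alpha cluster, 1 passed 2-fold towards fetal liver and 0 towards bone marrow, beside 6.73% and 8.17% of all genes. The gene past 2-fold was Snrnp25, a component of the minor spliceosome, at 1.20 ± 0.20. The median of these neighbours was 0.13, and under spike-in scaling 0 of them passed 2-fold in fetal liver and the median was -0.21. All 6 olfactory receptor genes listed around the beta cluster were below the well-above-background limit on both arrays.

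Of 21 listed factors known to repress embryonic or fetal globin genes, 19 were measured. Past 2-fold were 0 towards fetal liver and 1 towards bone marrow, where 6.73% and 8.17% of all genes passed, so these counts do not set the list apart, and the median was 0.15 against 0.11 over all measured genes. Bcl11a, a repressor of embryonic beta-type genes in mouse and of gamma-globin in human, read 4706 for bone marrow and 4382 for fetal liver, a difference of 0.31 ± 0.20, while its other probe gave 1.003. Zbtb7a, a second repressor of gamma-globin in human cells, was at -0.34 ± 0.21, with its other probe at 0.37. Myb, whose loss raises fetal globin in human erythroid cells, was at -0.44 ± 0.20. Sox6, a repressor of Hbb-y in definitive red cells of the mouse, read 2.77 and 2.42, neither well above background. The member beyond 2-fold was Nfix, a nuclear factor I protein linked to repression of fetal globin in human cells, at -1.37 ± 0.20 (2.58-fold higher in bone marrow). Spike-in scaling turned the list median to -0.18, with that of all genes at -0.23.

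The fetal RNA-binding and chromatin genes of the Lin28b axis include some that raise fetal globin when forced in adult human erythroid cells. Past 2-fold towards fetal liver were 5 of 6 measured members, against 6.73% of all genes. Of these 5, Lin28b, Igf2bp1 and Igf2bp3 were well above background in fetal liver alone, so their direction was fixed by that filter, and 2, Igf2bp2 and Hmga2, were measured on both arrays. Lin28b, which blocks let-7 maturation, was at least 168-fold higher by its brightest probe (a bound of 7.39, the other probe 3.13). Igf2bp1 and Igf2bp3 were at least 60.1-fold and 43.5-fold higher, Igf2bp2 was at 5.04 ± 0.22, and Hmga2 was at 4.17 ± 0.20.

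All 19 listed activators and cofactors of globin promoters and enhancers were measured. Past 2-fold were 0 towards fetal liver and 2 towards bone marrow, against 6.73% and 8.17% of all genes, and the median was -0.09 against 0.11. These counts do not set the list apart. Klf1, the erythroid CACCC-binding activator, was dim on both arrays, at 16.6 for bone marrow and 20.0 for fetal liver, a difference of 0.68 ± 0.38. Gata1, the main GATA factor of red cells, had signals of 1014 and 539.6, a difference of -0.49 ± 0.20. Mafk, the small Maf partner of Nfe2 at globin enhancers, was at -1.62 ± 0.20, and Lmo2, the bridging protein of the Tal1 complex, at -1.09 ± 0.20, both higher in bone marrow. Under spike-in scaling 4 passed 2-fold towards bone marrow, and the median was -0.42, with that of all genes at -0.23.

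Of 16 listed genes that supply haem, the group each globin chain carries, or handle iron and free globin, 15 were measured, with a median of 0.003. Past 2-fold were 0 towards fetal liver and 2 towards bone marrow, again beside 6.73% and 8.17% of all genes. Fech, the ferrochelatase that completes haem, was at -1.07 ± 0.20, and Slc25a37, mitoferrin of the mitochondrial membrane, at -1.08 ± 0.20. Alas2, the erythroid form of the first enzyme of the pathway, was well above background in fetal liver alone, at a signal of 16.0 against 3.01, which gives a bound of 1.73-fold. No probe was matched to Ahsp, the chaperone of free alpha chains. Under spike-in scaling the median was -0.33, with that of all genes at -0.23.

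**Figure D4:**
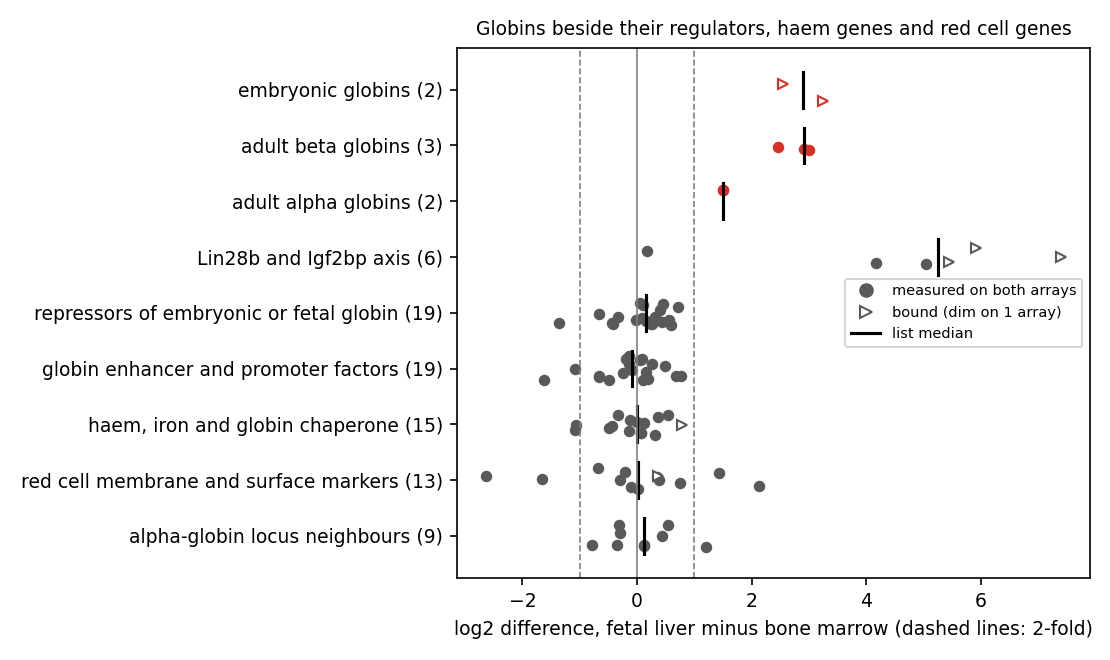
Log2 difference (fetal liver minus bone marrow) of each measured gene in the globin groups (red) and in 6 related lists (grey), with the number measured in brackets, list medians as black bars and bounds as open triangles. The adult alpha and beta globins lie beyond 2-fold, while the medians of the repressor, activator, haem, red cell and neighbour lists lie between -0.09 and 0.15.

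Red cell membrane and surface genes, markers of the erythroid cells in which globins are most abundant, were set beside these results. Of 21 listed, 13 were well above background on at least 1 array, 2 passed 2-fold in each direction, and the median was 0.01. Over all genes, 6.73% passed towards fetal liver and 8.17% towards bone marrow. The summed signal of the red cell list, in units of the array's 75th percentile, was 152.9 in bone marrow and 138 in fetal liver. Car2, a carbonic anhydrase, made up 77.0 and 47.9 of these sums, and without it the order turned, to 75.9 in bone marrow against 90.2 in fetal liver. Higher in fetal liver were Rhd, a blood group protein, at 2.13 ± 0.28 from signals of 20.8 and 68.3, and Epor, the erythropoietin receptor, at 1.44 ± 0.21. Higher in bone marrow were Icam4, an adhesion molecule of red cells, at -2.63 ± 0.21, and Car1, another carbonic anhydrase, at -1.66 ± 0.25. Among the listed genes that were well above background on neither array were Epb42, Sptb, Rhag, Kel, Cd36 and Trim10. The part of red cells or their free RNA in the globin signals was not tested beyond these values.

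Markers of 2 other cell types of the fetal liver and the sort markers were read in the same way. For the counts below, the shares of all genes past 2-fold were 6.73% towards fetal liver and 8.17% towards bone marrow. Of 7 measured hepatocyte markers 1 passed 2-fold towards fetal liver and 3 towards bone marrow, and their summed signals were 92.4 (bone marrow) and 57.5 (fetal liver). Trf, which encodes transferrin, carried most of both sums, and without it they were 22.8 and 28.7, the other way round. Past 2-fold towards fetal liver was Apoc1, an apolipoprotein, with signals of 151 and 1404 (3.63 ± 0.21, 12.4-fold). Towards bone marrow were Trf (-1.27 ± 0.20), Afp, alpha-fetoprotein (-1.26 ± 0.06), and Fgb, a fibrinogen chain, as a bound (-2.01). Alb, which encodes albumin, was well above background on neither array. Of 7 measured macrophage markers 1 passed 2-fold on each side, both as bounds, namely Cd5l towards fetal liver (1.098) and Vcam1 towards bone marrow (-1.49). Fgb, Cd5l and Vcam1 were each well above background on 1 array alone, so their direction was fixed by that filter. The summed signals of the macrophage markers were 28.3 and 34.5, nearly all from Csf1r, and 0.76 and 0.68 without it. The part of these cells in the globin signals was not tested. Kit, which encodes the c-Kit receptor used in the sort, had signals of 4074 and 3063 and differed by 0.01 ± 0.14, and Ly6a, which encodes Sca-1, had signals of 3846 and 594 and differed by -2.28 ± 0.20. Transcripts of both sort markers were thus well above background on both arrays.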

How the data were processed

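LSK cells of bone marrow and fetal liver were measured on 1 Agilent array each. Per the file headers, the deposited intensity values were written by Feature Extraction 10.7.1.1 after background subtraction and spatial detrending of the single array. Flags of 0 or 1 accompany each spot. The deposited series table holds a linear ratio, which equalled processed signal over 1 constant per array (178.6 and 133.9) within 0.1% for 99.99% of 55232 probes printed once; the choice of these constants is not explained in the sources used here.

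From these files, control and outlier spots (137 and 122) were left out, spots of a probe averaged, and the log2 of each array's 75th percentile subtracted. The share of probes well above background was 47.4% for bone marrow and 46.4% for fetal liver. Accessions without versions were matched to the RefSeq gene table (GRCm38.p6), naming 27220 probes. The array design uses build mm9, so no gene coordinates from that table are given. A gene took its brightest probe. Where 1 array was not well above background, the brighter value was divided by the larger of the dim signal and that array's lowest signal well above background, and the value is a bound. By construction a bound could not point towards the dim array. No test was possible with 1 array per group, and genes were counted at 2-fold. Technical spread was read from 247 probes with 10 spots each: the SD of the log2 difference was 0.15, with 0.24 among the dimmest and 0.06 among the brightest of 3 equal groups, and the software's median error was 0.21. The number of arrays limits the precision. After percentile scaling, the 8 of 10 spike-in controls that both arrays detected differed by a median of 0.34. Named were all globin members, up to 10 list genes beyond 2-fold by size, 12 genes fixed by name and the 5 genes nearest in difference. The members, the 14 gene lists and the alternatives were chosen with earlier results of these data known. The deposited files hold no mean spot signal, so normexp correction (limma 3.58.1, offset 50) used the median spot and background signals. The sums without a list's brightest gene and the recomputed pairs were added after seeing the data. The counting was tested on simulated data. Single values of some listed red cell genes are not reported here.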

Additional observations from a re-analysis of the deposited data

How the results depend on the processing

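All 7 globin genes counted as higher in fetal liver were counted again under 9 of 10 alternatives. The exception was the requirement of signal above background on both arrays, which leaves out Hbb-y and Hbb-bh1 and gave 5 genes; the count higher in bone marrow was 0 under every alternative. Of 61 probe values under 8 alternatives all were positive and 60 were at least 2-fold. The values of Hbb-y and Hbb-bh1 that are bounds could not be negative by construction, so their sign is no check. Normexp lowered the differences of the dim probes most, to 1.37 for Hbb-bh1, 1.095 and 0.76 for the probes of Hbb-y and 1.66 for Hbb-bs. It left Hbb-bt at 2.71. Spike-in scaling lowered each globin difference by a constant, to 2.66 for Hbb-bt and 1.16 for Hba-a2, and without the filter on dim probes Hbb-bh1 stood at 4.07 and the probes of Hbb-y at 4.33 and 3.92. The excess of Hbb-bt over Hba-a2 ranged from 1.45 (quantile) to 1.49. The smallest gap between an adult beta and an alpha gene, Hbb-bs over Hba-a1, was 0.96 to 1.02 under 7 alternatives but 0.33 under normexp, where 4 of 6 pairs between families exceeded 2 errors and 2 of 4 within families stayed below them.

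Over all genes, spike-in scaling put 509 genes past 2-fold towards fetal liver and 1757 towards bone marrow (22.5% in fetal liver, against 45.2% of the 901 and 1093 in the main setting) and moved the median of all genes from 0.11 to -0.23. Normexp gave 379 and 606, no filter on dim probes 1685 and 1658, and a 1.5-fold threshold 2350 and 1994.

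Counts in the lists are small, and these moved by over 1.5 times. Under the 1.5-fold threshold, higher in fetal liver were 2 repressors, 2 activators, 1 haem gene, 1 LSK marker, 2 hepatocyte markers and 2 macrophage markers, and higher in bone marrow 2 repressors, 4 activators, 1 alpha-cluster neighbour, 2 LSK markers and 2 macrophage markers. Under spike-in scaling, 4 activators, 1 neighbour and 2 LSK markers were higher in bone marrow, and 0 neighbours and 0 macrophage markers in fetal liver. Without the filter on dim probes, 2 of 21 repressors and 3 of 10 macrophage markers were higher in bone marrow. Higher in fetal liver there were 1 of 15 haem genes, 7 of 21 red cell genes and 2 of 10 macrophage markers. That setting also counts genes that were dim on both arrays. Normexp left 1 red cell gene on each side and 0 macrophage markers on each side. Requiring both arrays left 2 genes of the Lin28b axis in fetal liver and 0 macrophage markers on each side. The mean over probes gave 2 neighbours higher in fetal liver and 2 LSK markers higher in bone marrow, quantile normalization 2 LSK markers in bone marrow, and the authors' ratios put 2 macrophage markers in fetal liver. The cause was not tested where the setting's construction does not show it. No paired analysis was possible because each group holds 1 array, and for the same reason no replicate could be left out and no slide fitted as a block. Signal over background limits Hbb-y, Hbb-bh1, Hba-x, Klf1 and Alas2.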
